A study of Rattus norvegicus with 16 samples.

Results

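Sptb, the gene of red cell beta-spectrin, had a higher signal in the proximal femur of F344 rats than in those of 3 other inbred strains, while Hemgn and Car1, a pair of erythroid genes, were lower there than in the same strains. These genes belong to a set of 9 that build the red cell membrane or direct red cell formation: Sptb, Ank1, Slc4a1, Epb42, Hemgn, Car1, Klf1, Gata1 and Epor. Members were all probe sets whose only symbol in the array's annotation is one of these names, which gave 16 probe sets for the 9 genes, out of 20826 probe sets with a single symbol. All 9 symbols matched the RefSeq gene table of the assembly GRCr8, where the genes lie on chromosomes 6, 16, 10, 3, 5, 2, 19, X and 8 in the order given. None of the 9 lies on chromosome 4, the chromosome named in the study's title.

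Total RNA of the proximal femur, the hip end of the thigh bone, was measured on 16 Affymetrix rat arrays. Animals were 4 weeks old. Each inbred strain had 4 arrays: Fischer 344 rats are written F344 and Lewis rats LEW, while COP stands for Copenhagen 2331 and DA for Dark Agouti. The labels name no treatment and no genetic change. The labels do not say whether the 4 replicates of a strain were separate animals, so p-values measure the spread between these arrays, which may be technical. In whole tissue, fewer cells of a type and less RNA per cell cannot be told apart.

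Red cells form in the marrow from precursors that answer to erythropoietin through its receptor, the product of Epor. The transcription factors Gata1 and Klf1 switch on most genes of the red cell, among them those for hemoglobin and for the membrane. In the finished cell, spectrin filaments of alpha and beta chains lie under the membrane and are tied by ankyrin, encoded by Ank1, and by the product of Epb42 to the anion exchanger band 3, encoded by Slc4a1. Inherited loss of any of these proteins gives fragile, rounded red cells. Beta-spectrin of the Sptb gene and short forms of ankyrin 1 are also made in skeletal muscle.

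The deposited signals were linear intensities on a common scale, with a 2% trimmed mean of 1000.3 on each array and medians of 303 to 325. Arrays of a strain correlated with r of 0.977 to 0.989 across probe sets, and arrays of different strains with 0.962 to 0.973; genes are not independent replicates. Bone was plainly present, with signals of at least 56189.7 for the bone collagen gene Col1a1 and 48771 for the osteocalcin gene Bglap on every array. So was the erythroid lineage, with at least 20728 for Alas2, the first enzyme of erythroid heme synthesis.

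The letters upstream of the start sites are shown for the genes that passed the test between F344 and LEW, because Gata1 and Klf1 are themselves members and their known binding motifs can be looked for in the other genes. RefSeq windows (GRCr8) were matched by symbol for 6 of the 9 genes, 7 windows in all with a pair for Hemgn, and Ank1, Slc4a1 and Car1 had no entry. Each run is the 250 bases before a start, 5′ to 3′ on the gene's strand. Capitals mark matches on either strand to a GATA motif (the letters GATA with A or T before them and A or G after them) or to a Kruppel-like motif (CCNCNCCC, where matches may overlap). The windows lie at chr6:101170279-101170528 on the minus strand for Sptb, chr3:128451684-128451933 (minus) for Epb42, chr5:65494190-65494439 and chr5:65485822-65486071 (minus) for Hemgn, chr19:40158652-40158901 (minus) for Klf1 and chrX:17201387-17201636 (plus) for Gata1.
Sptb: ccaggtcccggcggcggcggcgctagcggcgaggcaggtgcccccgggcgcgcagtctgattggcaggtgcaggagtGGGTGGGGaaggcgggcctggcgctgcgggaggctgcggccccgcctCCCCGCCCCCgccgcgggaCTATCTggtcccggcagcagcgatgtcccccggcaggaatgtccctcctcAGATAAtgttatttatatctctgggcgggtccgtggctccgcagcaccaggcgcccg
Epb42: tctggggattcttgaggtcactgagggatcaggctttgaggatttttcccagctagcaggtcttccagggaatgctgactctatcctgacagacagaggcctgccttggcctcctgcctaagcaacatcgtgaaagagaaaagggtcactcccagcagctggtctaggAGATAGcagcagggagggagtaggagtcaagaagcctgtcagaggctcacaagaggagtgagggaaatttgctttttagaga
Hemgn first window: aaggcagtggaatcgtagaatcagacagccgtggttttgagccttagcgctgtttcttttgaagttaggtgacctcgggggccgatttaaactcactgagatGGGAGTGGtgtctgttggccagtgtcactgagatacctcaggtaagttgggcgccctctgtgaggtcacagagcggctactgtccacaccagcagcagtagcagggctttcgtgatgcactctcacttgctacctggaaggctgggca
Hemgn second window: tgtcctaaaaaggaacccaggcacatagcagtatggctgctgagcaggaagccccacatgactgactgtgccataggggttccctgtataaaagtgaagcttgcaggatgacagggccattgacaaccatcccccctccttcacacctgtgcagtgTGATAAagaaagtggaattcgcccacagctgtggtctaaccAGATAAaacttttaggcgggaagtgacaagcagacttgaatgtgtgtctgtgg
Klf1: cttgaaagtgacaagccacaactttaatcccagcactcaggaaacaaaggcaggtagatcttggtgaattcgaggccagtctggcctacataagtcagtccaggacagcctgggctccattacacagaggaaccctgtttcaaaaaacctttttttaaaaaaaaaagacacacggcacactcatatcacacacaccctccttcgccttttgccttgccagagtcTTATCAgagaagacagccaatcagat
Gata1: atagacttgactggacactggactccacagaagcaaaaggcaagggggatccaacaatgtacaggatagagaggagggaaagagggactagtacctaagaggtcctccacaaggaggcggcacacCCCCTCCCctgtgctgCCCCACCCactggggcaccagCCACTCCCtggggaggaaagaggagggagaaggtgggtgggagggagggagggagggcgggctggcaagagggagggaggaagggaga

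The Sptb window held 2 GATA matches, beginning 107 and 57 bases before the start, and 3 Kruppel-like matches. The second Hemgn window also held 2 GATA matches, beginning 94 and 53 bases before the start. Klf1 held 1, beginning 26 bases before its start, and Epb42 held 1, beginning 82 bases before. The Gata1 window held no GATA match and 3 Kruppel-like matches. The Epor window, not shown, held 1 GATA and 4 Kruppel-like matches. Of all 33469 windows in the table, 27.0% held a GATA match, 42.8% a Kruppel-like match and 43.3% an E-box (CAGNTG), which occurred in the windows of Sptb, Epb42, Hemgn and Epor. Sptb, higher in F344, and Hemgn, lower in F344, thus both carried GATA letters near a start; a match is only a description of the letters.

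Sptb encodes the beta chain of spectrin, and its signal was highest in F344. The probe set measured (1376495_at) gave 833, 817, 717 and 764 on the 4 F344 arrays and 658, 631, 490.2 and 452 on the LEW arrays. The COP arrays gave 534, 452, 477 and 537, and those of DA 457, 589, 633 and 675. The lowest F344 array lay above the highest of all 12 others, whereas LEW, COP and DA overlapped one another. Means were 783 ± 52.5 in F344, 589 ± 94.3 in DA, 558 ± 102 in LEW and 500.1 ± 42.5 in COP (SD, n = 4). In limma's fit over all genes, F344 exceeded LEW by 0.50 (SE 0.134, limma adjusted p = 0.0145) on the log2 scale, which is 1.42-fold. It exceeded COP by 0.65 (SE 0.134, limma adjusted p = 0.00161) and DA by 0.42 (SE 0.134, limma adjusted p = 0.0359). The next strains in the order, DA, LEW and COP, did not differ beyond their spread: DA over COP had a 95% interval of -0.056 to 0.50, LEW minus DA one of -0.36 to 0.20 and LEW minus COP one of -0.14 to 0.42.

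The Sptb calls against LEW and DA rested on few arrays. Without LEW replicate 3 the log2 difference from LEW was 0.45 with a limma adjusted p of 0.0547, and without DA replicate 1 that from DA was 0.31 with 0.121. The call against DA was also lost without DA replicate 2 or F344 replicate 1, 2 or 4 (limma adjusted p of 0.0596 to 0.0928). The gene had a pair of further probe sets, 1385657_at and 1379231_at, whose signals ran from 5.29 to 64.2, far under the filter level of 174, so the Sptb result comes from 1 probe set.

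**Figure D1:**
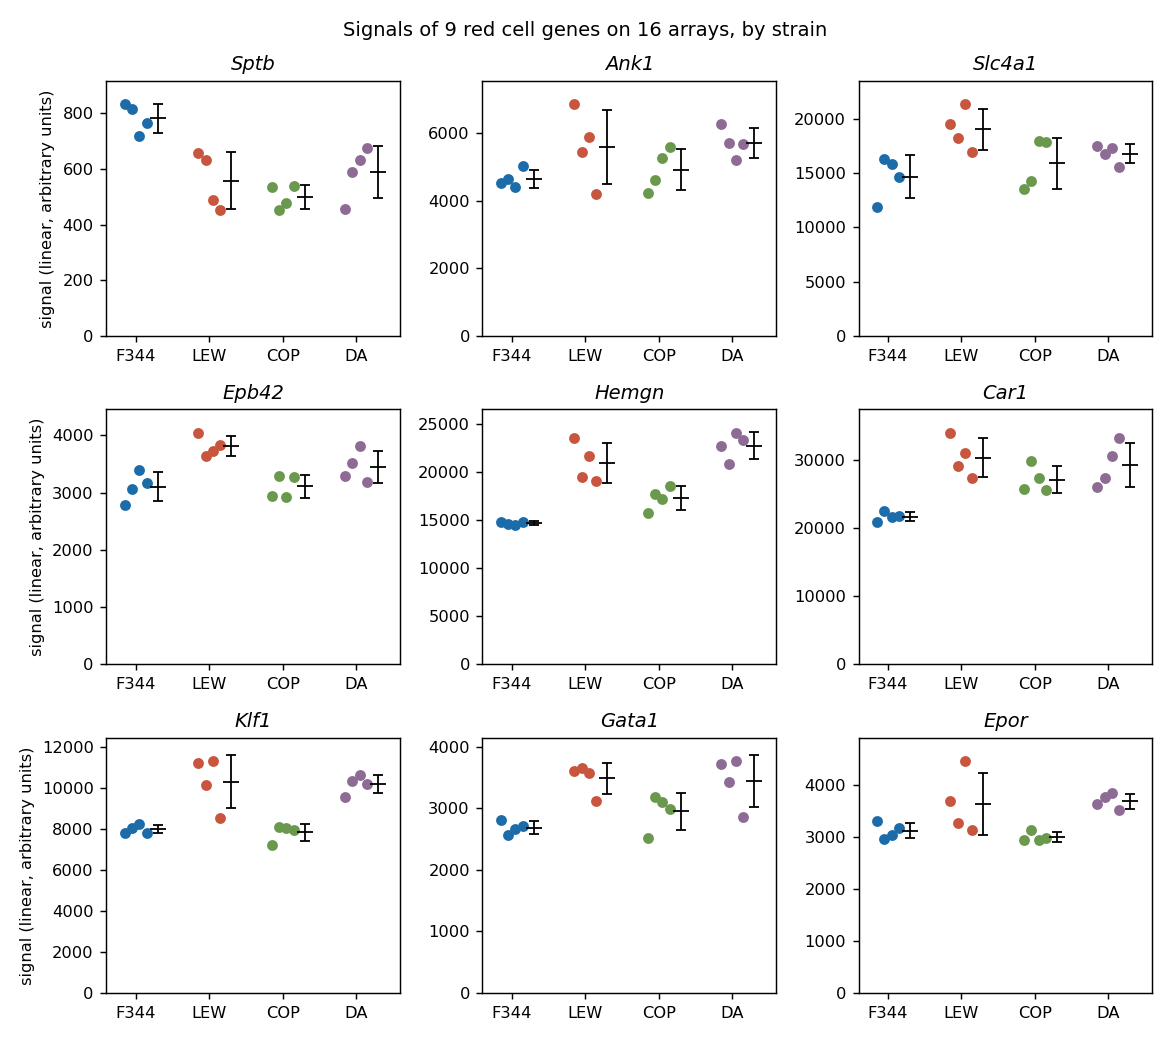
Signals of the main probe set of each of the 9 genes on a linear axis from 0, with 1 point per array (4 per strain) and the strain mean ± SD beside the points. The F344 points of Sptb, 717 to 833, lie above all others, and those of Hemgn and Car1 lie below all others.

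Ank1 encodes ankyrin 1, which holds spectrin to band 3, and did not pass the test between any strains. Its main probe set (1389398_at) gave 4520.0, 4657, 4399.7 and 5027 in F344 and 6865, 5449, 5894 and 4206 in LEW. The COP arrays gave 4248, 4619, 5264 and 5586, and the DA arrays 6288, 5707, 5213 and 5674. F344 arrays fell within the wide LEW range but below every DA array. The log2 difference of F344 minus LEW was -0.25 (SE 0.111, limma adjusted p = 0.153), with a 95% interval of -0.48 to -0.018, and that of F344 minus DA was -0.30 (SE 0.111, limma adjusted p = 0.074). LEW replicate 4 was the lowest of all 16 arrays; without it the difference from LEW was -0.38 with a limma adjusted p of 0.00784. A second probe set (1395046_at), with strain means of 168 to 226, had its highest mean in F344, 0.43 (SE 0.265, limma adjusted p = 0.328) for F344 minus LEW, and the third (1397805_at) lay below the filter with signals of at most 86.2. The F344 minus DA value of the main probe set passed with array weights, with only the 8 arrays of the compared strains and without LEW replicate 1 or 4 (limma adjusted p of 0.00564 to 0.0387). The kept probe sets of Ank1 thus had opposite signs for F344 minus LEW, neither passing the test.

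Slc4a1, the gene of the anion exchanger band 3, was lower in F344 than in LEW by both of its probe sets. The brighter one (1387656_at) gave 11881, 16322, 15849.5 and 14639 in F344 and 19556, 18269, 21340.0 and 16945 in LEW, with no overlap. The COP arrays gave 13525, 14283, 17955 and 17836 and the DA arrays 17498, 16743, 17342 and 15574, both reaching into the F344 range. The log2 difference of F344 minus LEW was -0.38 (SE 0.101, limma adjusted p = 0.0139). For the second probe set (1369634_at), with 4314, 4782, 4111 and 4253 in F344 and 6592, 6461, 7051 and 5899.6 in LEW, it was -0.57 (SE 0.0948, limma adjusted p = 0.000219). That probe set also put LEW above COP by 0.38 (SE 0.0948, limma adjusted p = 0.00803) and above DA by 0.36 (SE 0.0948, limma adjusted p = 0.0163), where the brighter one gave 0.27 (limma adjusted p = 0.0904) and 0.18 (limma adjusted p = 0.314). The call of the brighter probe set against LEW was lost without F344 replicate 1 (limma adjusted p = 0.0637) or LEW replicate 3 (0.0607), and that of the other against DA without LEW replicate 3 (0.0569) or DA replicate 2 (0.0714).

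Epb42, whose product binds band 3 and ankyrin, was highest in LEW. Its signals (1382618_at) were 4047, 3637, 3733 and 3827 in LEW against 2789.9, 3062, 3396 and 3163 in F344 and 2943, 3295, 2923 and 3274 in COP, the LEW arrays lying above all of both strains. DA took a middle place with 3285, 3525, 3810.3 and 3193. F344 minus LEW was -0.30 (SE 0.0720, limma adjusted p = 0.00713) on the log2 scale, and LEW minus COP was 0.30 (SE 0.0720, limma adjusted p = 0.00709). F344 and COP had nearly equal means, 3103 ± 251 and 3109 ± 203 (SD, n = 4), with a 95% interval of the log2 difference of -0.15 to 0.15. LEW minus DA did not pass, at 0.14 (SE 0.0720, limma adjusted p = 0.237).

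Among the regulators, Klf1, the erythroid Kruppel-like factor, divided the strains in pairs. F344 gave 7821, 8027, 8219 and 7809 and COP 7228, 8085, 8061 and 7935, while LEW gave 11219.6, 10122, 11302 and 8518 and DA 9563, 10349.7, 10632 and 10192 (probe set 1382033_at). All LEW and DA arrays lay above all those of F344 and COP. LEW exceeded F344, with F344 minus LEW at -0.36 (SE 0.0726, limma adjusted p = 0.00165), and COP, with LEW minus COP at 0.39 (SE 0.0726, limma adjusted p = 0.000718). DA exceeded F344, with F344 minus DA at -0.35 (SE 0.0726, limma adjusted p = 0.0018), and COP, with COP minus DA at -0.38 (SE 0.0726, limma adjusted p = 0.00121). Within the pairs, the log2 difference of F344 minus COP was 0.027 (95% interval -0.12 to 0.18) and that of LEW minus DA 0.0069 (-0.14 to 0.16). The widest spread was that of LEW, a coefficient of variation of 12.6%, against 2.44% in F344.

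Gata1, the zinc finger factor on which erythroid and megakaryocyte precursors depend, was lower in F344 than in LEW and DA. Signals (1368510_at) were 2814, 2561, 2657 and 2709 in F344, 3605, 3652, 3568 and 3117 in LEW, 2514, 3177, 3101 and 2994 in COP and 3718, 3433, 3764 and 2858 in DA. F344 lay below every LEW and DA array and overlapped COP. The log2 difference was -0.37 (SE 0.0871, limma adjusted p = 0.00556) for F344 minus LEW and -0.35 (SE 0.0871, limma adjusted p = 0.0081) for F344 minus DA. COP minus DA, at -0.22 (limma adjusted p = 0.106), and LEW minus COP, at 0.25 (limma adjusted p = 0.069), did not pass; the latter passed under median centring, with array weights and without LEW replicate 4 or DA replicate 4 (limma adjusted p of 0.0289 to 0.0495), and the former without DA replicate 4 (0.0179).

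Epor, the erythropoietin receptor gene, was lower in COP than in DA and LEW. Its main probe set (1369988_at) gave 2945, 3145, 2944 and 2988 in COP, 3633, 3779, 3844 and 3524 in DA, 3705, 3267, 4467 and 3134 in LEW and 3306, 2974, 3044 and 3183 in F344. COP lay below all DA arrays but overlapped those of LEW. COP minus DA was -0.30 (SE 0.0829, limma adjusted p = 0.0222), and LEW minus COP 0.26 (SE 0.0829, limma adjusted p = 0.0374). Both calls were lost when single arrays were left out, with limma adjusted p up to 0.0614 for COP minus DA (without COP replicate 1, DA replicate 2 or DA replicate 3) and up to 0.145 for LEW minus COP (without LEW replicate 1 or 3 or COP replicate 1, 3 or 4); the latter was also lost with no filter, no intensity trend or the 8 arrays alone. F344 minus LEW did not pass, at -0.21 (SE 0.0829, limma adjusted p = 0.107); without LEW replicate 4 it was -0.28 with a limma adjusted p of 0.0252. A second probe set (1388090_a_at) ordered the strains differently, with means of 981 ± 164 in LEW, 921 ± 205 in F344, 791 ± 68.2 in COP and 746 ± 56.3 for DA (SD, n = 4); its COP minus DA value was 0.083 (SE 0.144, limma adjusted p = 0.773). The third (1382766_at) lay below the filter. F344 minus DA of the main probe set, at -0.24 (limma adjusted p = 0.0524), passed with a 60th percentile filter, with array weights, with the 8 arrays alone and without LEW replicate 3 or 4.

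Hemgn and Car1 separated F344 from every other strain. Hemgn encodes hemogen, a nuclear protein of blood cell precursors, and its probe set (1387756_s_at, a type that can detect more than 1 transcript) gave 14825, 14588, 14425 and 14825 in F344. LEW gave 23480.4, 19400.4, 21676 and 19045, COP 15677, 17712, 17136 and 18544 and DA 22661, 20842, 24049 and 23277. No F344 array reached any other, and the F344 arrays spread little, with a coefficient of variation of 1.33%. DA minus F344 was the widest gap, with F344 minus DA at -0.63 (SE 0.0673, limma adjusted p = 9.15e-07), a 1.55-fold lower signal. F344 minus LEW was -0.51 (SE 0.0673, limma adjusted p = 1.68e-05), and F344 minus COP was -0.23 (SE 0.0673, limma adjusted p = 0.0177). COP lay between the others, below DA, with COP minus DA at -0.40 (SE 0.0673, limma adjusted p = 0.000365), and below LEW, with LEW minus COP at 0.27 (SE 0.0673, limma adjusted p = 0.00764). The F344 to COP call was lost without COP replicate 2 or 4 (limma adjusted p = 0.0514 and 0.0628).

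Car1 encodes carbonic anhydrase 1, the abundant red cell enzyme that interconverts carbon dioxide and bicarbonate. Its probe set (1372374_at) gave 20980.5, 22571, 21605 and 21774 in F344 and 34069, 29128, 31046 and 27359 in LEW. COP gave 25833, 29853, 27432 and 25581 and DA 26011, 27469, 30596 and 33253. The highest F344 array lay below the lowest of the 12 others, which overlapped one another. On the log2 scale F344 minus LEW was -0.48 (SE 0.0760, limma adjusted p = 0.000138), F344 minus DA -0.43 (SE 0.0760, limma adjusted p = 0.000475) and F344 minus COP -0.32 (SE 0.0760, limma adjusted p = 0.00474). LEW, DA and COP, in this order of means, did not differ beyond their spread, with log2 differences of 0.053 for LEW minus DA, -0.11 for COP minus DA and 0.16 for LEW minus COP (limma adjusted p = 0.739, 0.41 and 0.19).

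Counted by main probe set, 8 of the 9 genes differed over the 4 strains in limma's F-test at an adjusted p under 0.05, all but Ank1, where 32.9% of all 10548 genes tested did. Between F344 and LEW, 1 gene was higher in F344, Sptb, against a background of 6.96%. In the other direction, 6 were lower (Slc4a1, Epb42, Hemgn, Car1, Klf1 and Gata1) against 7.54% of all genes. The median log2 difference of the 9 was -0.36, and that of all genes 0.012. Without LEW replicate 3 the counts were 0 higher and 5 lower, the loss of the Sptb and Slc4a1 calls given above, and without LEW replicate 4 they were 1 and 8. Since the 9 were assembled with earlier results for this pair of strains known, these counts describe them and are not independent evidence.

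Between COP and DA, which share no array with the first comparison, 3 of the 9 were lower in COP (Hemgn, Klf1 and Epor), where 6.42% of all genes were, and 0 were higher, with 5.74% of all genes higher. At an unadjusted p under 0.05, 5 were lower and 0 higher in limma. Sptb did not share the pattern it had between F344 and LEW: its log2 difference of COP minus DA was -0.22 (SE 0.134, limma adjusted p = 0.316), of the same sign as those of all 8 others. The median of the 9 was -0.22, beside 0.003 for all genes. The 9 were chosen with earlier results of these data known, and all 16 arrays entered the same fit. The counts for COP and DA are therefore a description too.

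The remaining pairs of strains reuse the same arrays. For F344 minus COP, Sptb was higher and Hemgn and Car1 lower, against backgrounds of 10.4% higher and 10.6% lower. For F344 minus DA, Sptb was higher and 4 genes lower, Hemgn, Car1, Klf1 and Gata1, against 8.11% and 9.20%; their median over the 9 was -0.30. LEW minus COP had 4 genes higher, Epb42, Hemgn, Klf1 and Epor, and 0 lower (limma, with 7 higher and 0 lower at an unadjusted p under 0.05), against 6.41% and 7.72%. Without LEW replicate 4, 7 were higher there, and without COP replicate 2 or 4 only Car1 (1 gene) stayed lower for F344 minus COP. With array weights 6 were lower for F344 minus DA. For LEW minus COP 45.5% of all 2559 called probe sets were higher in LEW, and 55.9% of 2464 after median centring of the arrays. Between LEW and DA, 0 of the 9 main probe sets passed in either direction and 0 had an unadjusted p under 0.05 in limma, where 4.65% of all genes were higher and 5.77% lower. The 95% intervals for LEW minus DA were nevertheless wide, reaching -0.36 to 0.20 for Sptb and -0.033 to 0.39 for Slc4a1.

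**Figure D2:**
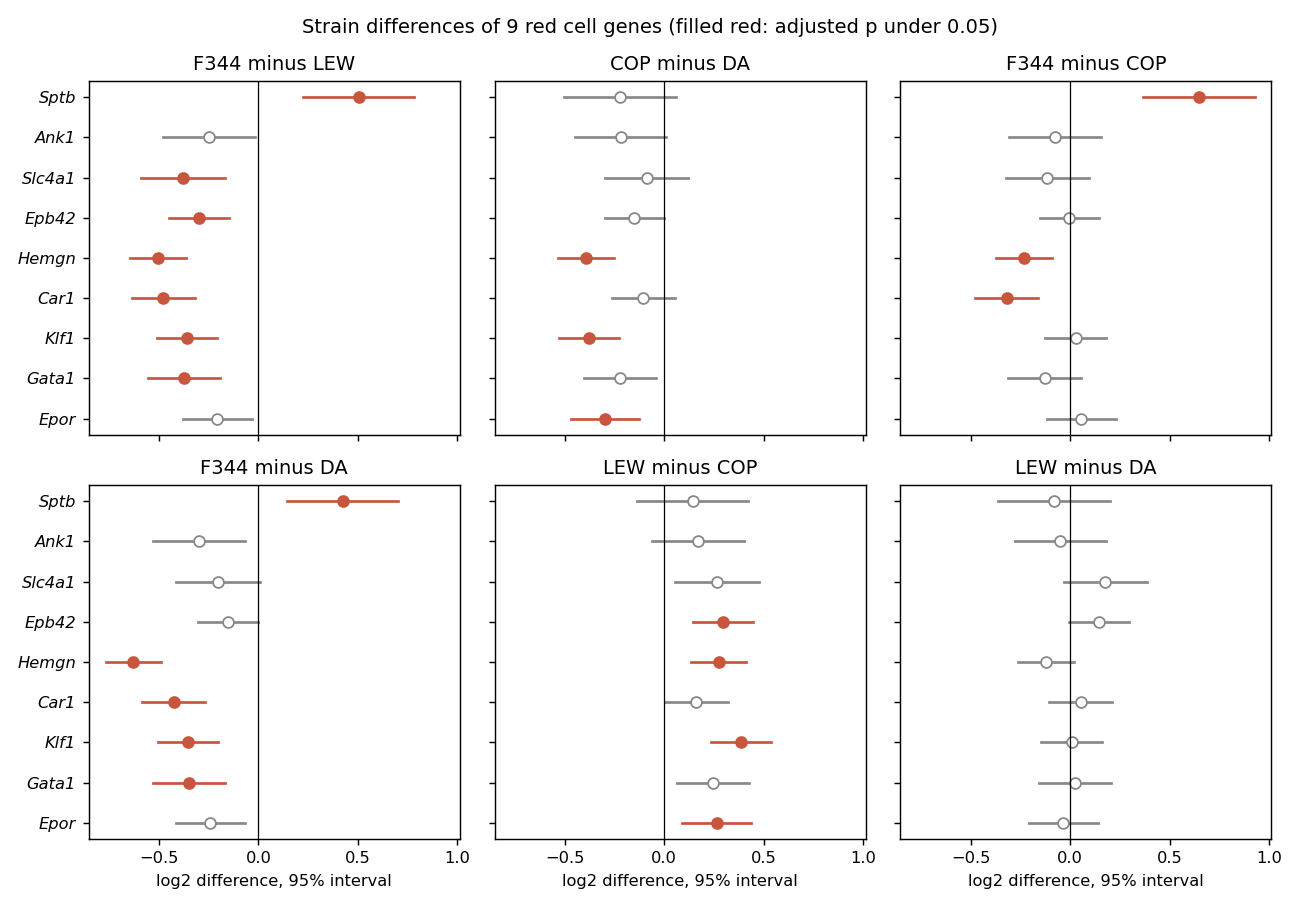
Log2 difference of each gene's main probe set (point) with its 95% interval from limma (line), for the 6 pairs of strains; filled red marks an adjusted p under 0.05. In the panels with F344, Sptb stands right of 0 and the called others left of it; in LEW minus DA no point is filled.

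The size of the gap between Sptb and the other genes was taken within arrays, as the log2 signal of Sptb minus that of each partner. This cancels whatever scales an array as a whole. From LEW to F344 the ratio of Sptb to its partner was higher by 0.71 for Epor, 0.75 for Ank1, 0.80 for Epb42, 0.86 for Klf1, 0.88 for Gata1, 0.89 for Slc4a1, 0.98 for Car1 and 1.01 for Hemgn. Relative to Hemgn, Sptb was thus 2.01-fold higher in F344. For all 8 partners the 4 F344 arrays lay above the 4 LEW arrays, giving a two-sided exact permutation p of 0.0286, the smallest that 4 against 4 arrays allow. Over the 48 tests of 8 partners in 6 strain pairs this adjusted to 0.0596, so 0 of 8 passed after correction while 8 of 8 were under 0.05 unadjusted. Against COP the ratio was higher in F344 by 0.59 to 0.97, again without overlap for 8 of 8. Against DA it was higher by 0.58 to 1.05, without overlap for 7 of 8, all but Epb42. COP minus DA gave -0.13 to 0.17 with overlap for all 8. The ratios share Sptb, so the 8 are not separate observations of it. Sptb was set against the other genes with earlier results for F344 and LEW known, so the test between these strains is no independent evidence of that pattern.

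**Figure D3:**
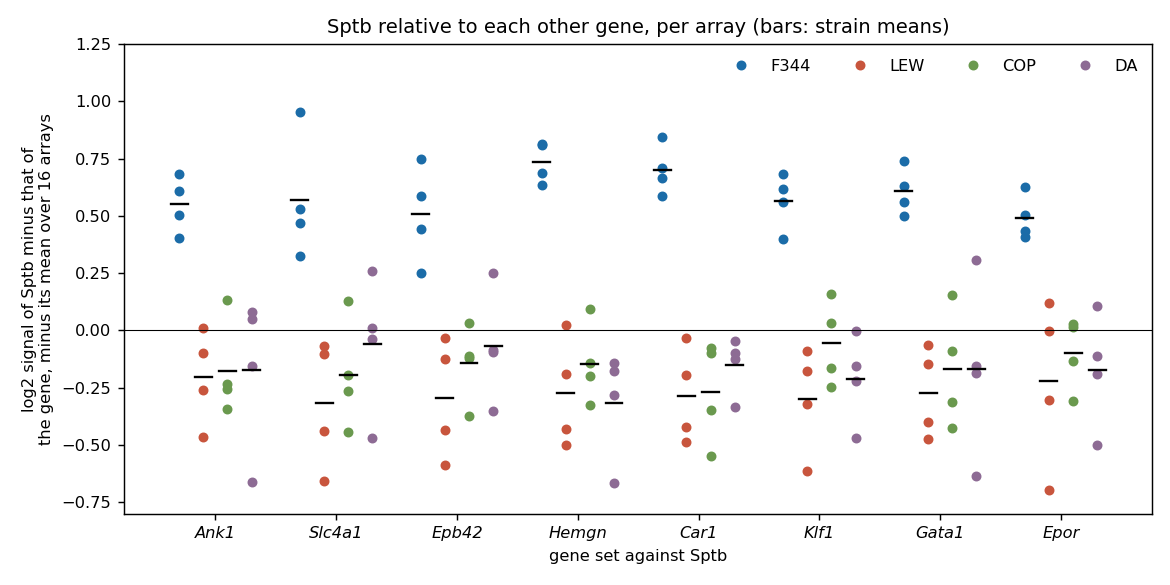
Log2 signal of Sptb minus that of each other gene, per array, with each gene's mean over the 16 arrays set to 0; short bars are strain means of 4 arrays. The blue F344 points stand above those of LEW and COP for all 8 genes.

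Other genes of the pathway were grouped by role. Their counts stand beside shares of all genes called of 6.96% higher and 7.54% lower for F344 minus LEW, and of 5.74% and 6.42% for COP minus DA. Of 29 further red cell membrane and skeleton genes listed, 22 passed the filter; between F344 and LEW 2 were higher in F344 and 7 lower by limma, with a median log2 difference of -0.11. Lower were the blood group and transport genes Rhd (-0.45, from 13454 ± 1527 in LEW to 9795 ± 117 in F344, SD, n = 4) and Rhag (-0.36). Higher were Bsg (0.36), which encodes the widely expressed glycoprotein basigin, and Tmod1 (0.31), whose product tropomodulin caps actin filaments in red cells and in muscle. The 2 of 22 called higher are a share near that of all genes, and either median centring or leaving out LEW replicate 4 left 1. Between COP and DA, 9 of 22 were lower in COP and 0 higher, with Tmod1 (-0.47) and the Kell blood group gene Kel (-0.43) the largest.

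Of 4 spectrin and ankyrin genes tested beside the members, 1 was higher in F344 than in LEW, Ank2 (0.50, limma adjusted p = 0.000195), an ankyrin of muscle and nerve, with signals of 1108 ± 87.5 and 779 ± 25.8 (SD, n = 4). Sptbn1, the beta-spectrin of most other cells, had a difference of -0.066 (limma adjusted p = 0.485), Sptan1, the common alpha-spectrin, 0.063 (0.597), and Ank3 0.24 (0.463).

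Of 28 further erythroid regulators tested, 6 were lower in F344 than in LEW and 1 higher, with a median of -0.21. The exception was E2f2, a cell cycle factor of maturing erythroblasts, with F344 at 15345 ± 466 and LEW at 4077 ± 481 (SD, n = 4), which is 1.92 on the log2 scale (limma adjusted p = 3.69e-14); its means in COP and DA were 12569.6 ± 499 and 17176 ± 843. LEW was thus the strain that stood apart for E2f2. Lower were Myb (-1.23), a factor of early precursors, the cytokine signal transducer gene Stat5b (-0.54) and Bcl11a (-0.43), a repressor of fetal globin genes. Without LEW replicate 4, 11 were lower, and after quantile normalization 9. Partners of Gata1 and Klf1 that did not pass included Tal1 (-0.23, limma adjusted p = 0.0533) and Zfpm1 (-0.33, 0.2), named after their values were seen. Between COP and DA, 5 of 28 were lower and 0 higher, led by E2f2 (-0.45) and Xpo7 (-0.43), a nuclear export factor of erythroblasts.

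Among globin and heme synthesis genes, 10 of 21 were lower in F344 than in LEW and 1 higher, with a median of -0.22. Abcb10 (-0.97), a mitochondrial transporter of heme synthesis, and Glrx5 (-0.45), which serves iron-sulfur cluster assembly, were among the lower, as was the alpha globin gene Hba-a3 (-1.80), a close copy of other globin genes whose probes may be shared. The embryonic globin gene Hbe1 (0.60) was the 1 rise, lost without LEW replicate 4. Between COP and DA, 13 were lower (9 after quantile normalization) and 0 higher. Of 17 red cell enzyme genes beside Car1, 5 were lower and 4 higher between F344 and LEW, with Bpgm (-0.42), which makes the regulator of hemoglobin's oxygen affinity, and Hk1 (-0.38) lower and Ube2l6 (0.44) and Nt5c3a (0.40) higher. Between COP and DA, 10 of them were lower and 0 higher, led by Gclc (-0.91), an enzyme of glutathione synthesis, and Blvrb (-0.51), a biliverdin reductase.

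Between F344 and COP, where Hemgn and Car1 were lower in F344, the medians of 3 of these 4 lists lay above 0. Of the 21 globin and heme synthesis genes, 4 were higher in F344 than in COP and 0 lower by limma (6 and 1 at an unadjusted p under 0.05), 17 had a difference above 0 and the median was 0.058. Further membrane and skeleton genes had 5 higher and 2 lower, with a median of 0.11. Enzyme genes beside Car1 had 3 higher and 0 lower (4 and 0 unadjusted), with a median of 0.12. Further regulators had 2 higher and 5 lower, with a median of -0.073. Over all genes 10.4% were higher and 10.6% lower in this pair. The lists are not limited to genes of red cells alone, since they hold Bsg and Tmod1. In the same pair all 35 skeletal muscle genes tested had a difference above 0, with a median of 0.45. The part of muscle RNA in the list medians was not tested.

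**Figure D4:**
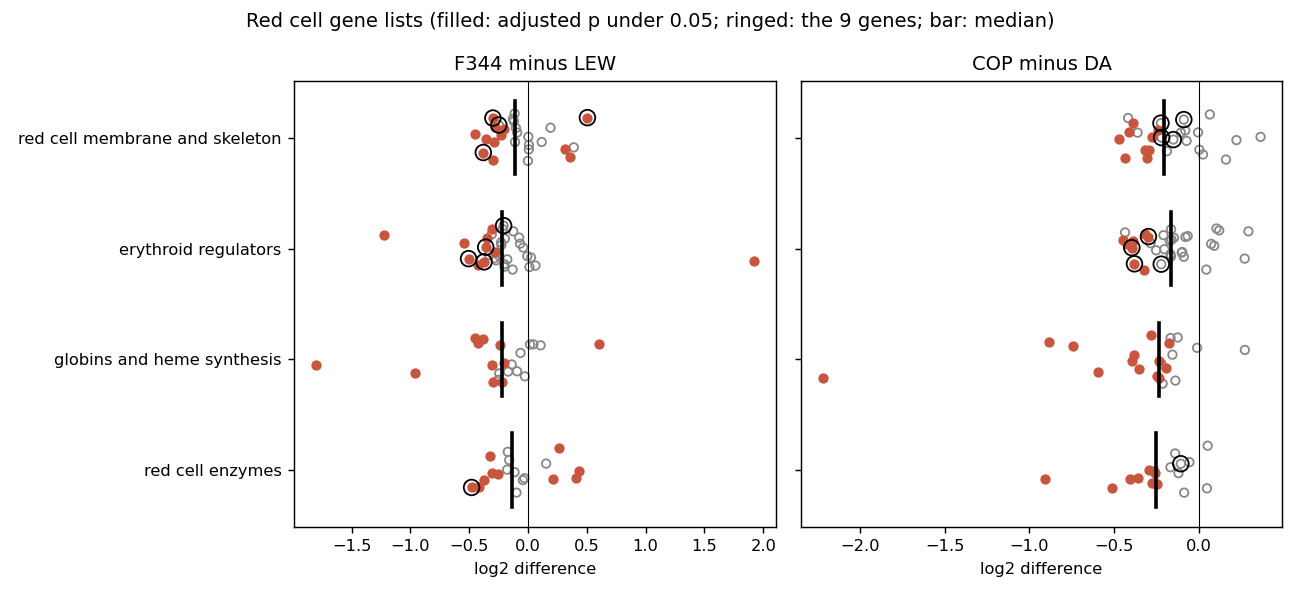
Log2 differences of the genes of 4 red cell lists, 1 point per gene, for F344 minus LEW and COP minus DA (the axes differ in range); filled points have a limma adjusted p under 0.05, rings mark the 9 genes and bars the list medians, these genes included. All 8 medians lie left of 0, and the filled point near 1.92 among the regulators is E2f2.

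Markers of other cells in the bone moved between the strains as well. Of 35 skeletal muscle genes tested, 5 were higher and 0 lower in F344 than in LEW, beside 6.96% and 7.54% of all genes. The largest was Myh4 (0.67), a fast myosin heavy chain. Called higher were 2 under median centring and 2 without LEW replicate 4, against 7 after quantile normalization. All 35 had a log2 difference above 0, with a median of 0.18. Under median centring 34 lay above 0, and without LEW replicate 4, 32 did. Against COP, 23 were higher and 0 lower in F344, beside 10.4% and 10.6% of all genes. Against DA, 2 were higher and 1 lower, which are smaller shares than the 8.11% and 9.2% of all genes. Between COP and DA, 19 were lower and 1 higher (13 lower after quantile normalization), beside 6.42% and 5.74% of all genes. The summed signal of the 35 genes ran from 810675 to 860143 over the F344 arrays, 660877 to 886336 in LEW, 575805 to 740871 in COP and 785875 to 941153 in DA.

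The muscle level of each array was set beside its Sptb signal, Sptb being a gene of muscle too. As a mean of log2 values centred on all 16 arrays, the muscle list stood at 0.27, -0.0065, -0.11 and -0.29 on LEW replicates 1 to 4, whose Sptb signals were 658, 631, 490.2 and 452; the order is the same. In DA it was 0.051, -0.00093, 0.11 and 0.25, with Sptb at 457, 589, 633 and 675; replicates 1 and 2 change places. COP had -0.53, -0.36, -0.054 and -0.09, with Sptb at 534, 452, 477 and 537, an order that is not the same. F344 had 0.13, 0.21, 0.21 and 0.20, with Sptb at 833, 817, 717 and 764, so that its lowest muscle level went with its highest Sptb signal. The order within a strain was thus the same in LEW, differed in DA only by the exchange of replicates 1 and 2, and was not the same in COP or F344. Between strains, the means of these muscle levels ranked F344, DA, LEW and COP from high to low. The Sptb means ranked the strains in the same order. LEW replicate 1 and DA replicate 4 had muscle levels above all 4 F344 arrays and Sptb signals of 658 and 675, below the lowest F344 array at 717. The other LEW and DA arrays and all COP arrays had muscle levels of at most 0.11, below every F344 array. Their Sptb signals also lay below the lowest F344 array. The part of muscle RNA in the Sptb difference was not tested.

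**Figure D5:**
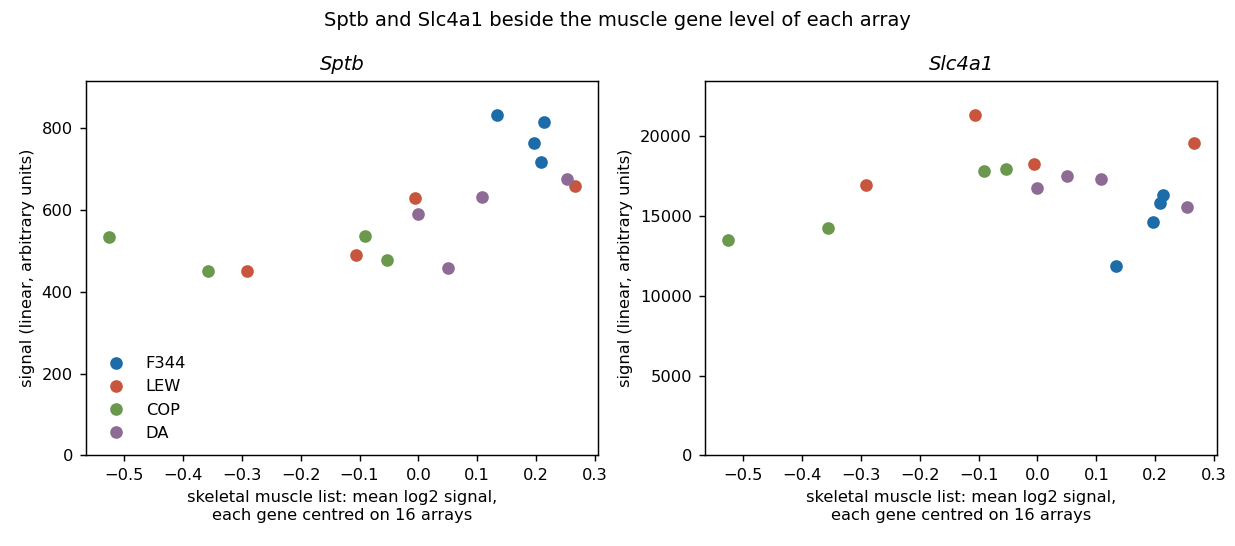
Signals of Sptb (left) and Slc4a1 (right) on linear axes from 0 against the level of 35 skeletal muscle genes on the same array, 1 point per array coloured by strain. Above a muscle level of 0.13 lie all F344 points and, of the other strains, only LEW replicate 1 and DA replicate 4. Both have Sptb signals below those of F344. At any muscle level the F344 points of Slc4a1 lie below all 4 LEW points.

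The genes most like Sptb over the 16 arrays were, by Pearson's r as a description chosen from 10470 genes, Rxrg (0.90), a retinoid X receptor, Dmrt2 (0.88), a DM domain factor, Cacna2d1 (0.87), a calcium channel subunit, Mrps28 (0.86), a mitochondrial ribosomal protein, and Ndufa6 (0.86), a subunit of respiratory complex I. Rxrg, for instance, had mean signals of 1039 in F344, 739.9 in DA, 658 in COP and 657 in LEW. All 8 other members had a Pearson r with Sptb below 0, from -0.45 for Car1 to -0.078 for Klf1. By Spearman's rank correlation Epor stood above 0, at 0.068, and the others below it. Those most like Slc4a1 were Ppox (0.88), a heme synthesis enzyme, Tax1bp1 (0.83), Hscb (0.83), a cochaperone of iron-sulfur cluster assembly, Tk1 (0.83), the thymidine kinase of dividing cells, and Rbm10 (0.82). Members other than Sptb had r with Slc4a1 of 0.49 (Epor) to 0.70 (Epb42). These values pool arrays of 4 strains, so shared strain differences enter them.

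Lists of dividing cells and of other marrow cells held calls in both directions between F344 and LEW. Of 29 proliferation genes 15 were lower and 0 higher, led by Aurkb (-0.86) and Tyms (-0.86), and of 9 B lymphoid genes 7 were lower and 0 higher. Megakaryocyte and platelet genes, whose lineage also depends on Gata1, had 5 of 14 lower (8 without LEW replicate 4) and 0 higher, with Pf4 (-1.59) the largest. Neutrophil genes had 4 of 14 lower (7 after quantile normalization) and 1 higher, and macrophage genes 1 of 18 lower and 7 higher. The single neutrophil gene called higher and the single macrophage gene called lower are shares near those of all genes, 6.96% and 7.54%. Bone and cartilage genes had 0 of 16 called in either direction by limma, 3 higher and 1 lower at an unadjusted p under 0.05, and 5 higher without LEW replicate 4. The centred mean of the bone and cartilage list ran from -0.34 to 0.34 over the LEW arrays, highest on LEW replicate 4, against 0.064 to 0.15 in F344. On that array 8 of the 9 main probe sets, Sptb included and Epb42 excepted, had their lowest LEW signal. The part of these other cells in the differences of the 9 genes was not tested.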

How the data were processed

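Per the submitters' processing notes, the authors made the deposited signal intensities with MAS5 (no version given), as 1 linear value per probe set and array; the scaling target was not given in the sources used here. Of 31099 probe sets, 57 controls were left out. Signals below 1 (255 values) were set to 1 and log2 values taken. A filter at the 40th percentile of mean log2 values (signal 174) kept 18625 probe sets, 12 of the 16 member probe sets among them. All 16 arrays entered a single fit of strain means in limma 3.58.1 (R 4.3.3), with an intensity trend and 12 residual degrees of freedom. Two-sided p-values were adjusted within each comparison (Benjamini-Hochberg, all kept probe sets, threshold 0.05). Each gene was represented by its brightest kept probe set, called main, which gave 10548 genes.

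Per-array ratios of Sptb were tested by exact permutation. The members and gene lists were chosen with earlier results of these data known. Every member was named, as were the 5 genes most correlated with Sptb and with Slc4a1. Genes of the lists were ranked by called differences, up to 4 per list between F344 and LEW and up to 2 between COP and DA. Not all of these were named in the text. Left out for F344 minus LEW were, for instance, Lcn2 (-3.91) of the neutrophil list, Vpreb3 (-2.41) of the B lymphoid list and Itgax (-1.02) of the macrophage list. Probe sets were named from the platform annotation and promoters from RefSeq (GRCr8). Alternatives were quantile normalization, median centring, a pseudocount of 19.3 (the 10th percentile), no filter, a 60th percentile filter, no trend, array weights, the 8 arrays of 2 strains alone, a replicate block and leaving out each array; list counts under other scalings and without LEW replicate 4 were added after seeing the data. Replicate numbers were not taken as pairs. Figures were drawn with matplotlib 3.10.9.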

Additional observations from a re-analysis of the deposited data

Results flagged for a closer look

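Of 48 groups of 4 arrays (12 kept member probe sets in 4 strains), 2 had an array far from the other 3 of its strain by Dixon's ratio of gap to range, where chance flags about 1 in 20 groups. Klf1 had a signal of 7228 on COP replicate 1, below the other COP arrays (ratio 0.833). Gata1 had a signal of 3117 on LEW replicate 4, below the other LEW arrays (ratio 0.853).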

How the results depend on the processing

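For the 12 kept member probe sets in 6 comparisons, 1746 alternative values stayed on their side of the threshold, 25 lost a call, 23 gained one and 0 called values changed sign. The lost calls were those of Sptb, Slc4a1, Hemgn and Epor, and the gained ones those of Ank1, Slc4a1, Gata1 and Epor. The log2 difference of Sptb for F344 minus LEW ran from 0.41 to 0.59 (limma adjusted p 0.00702 to 0.0547), and for F344 minus DA from 0.31 to 0.49 (0.0242 to 0.121). Arrays with the same replicate number did not deviate together (r of -0.17 to 0.088 in 24 pairs across strains, 4 of 16 arrays best with their own number). With the replicate number as a block, the call of Sptb for F344 minus DA was lost (limma adjusted p = 0.0569), as it was without a filter (0.0568), and 2424 probe sets were called between F344 and LEW against 2567 without the block; it changed no other member call. Counts of called probe sets stayed within 1.5 times under all alternatives in each comparison, for F344 minus LEW between 1907 and 3270. All 8 ratios of Sptb stayed higher in F344 than in LEW under quantile normalization, the pseudocount and each left-out array, but 3 arrays against 4 allow an exact p of 0.0571 at the least. Dim signals limit Sptb to 1 probe set: 4 member probe sets, 2 of them of Sptb, lay below the filter.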
